A study of Homo sapiens with 6 samples.

Results

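Small RNA reads of A549, a line of human lung adenocarcinoma cells, were examined for 7 mature miRNAs encoded within the HOX gene clusters. These were hsa-miR-10a-5p, hsa-miR-10a-3p, hsa-miR-10b-5p, hsa-miR-10b-3p, hsa-miR-196a-5p, hsa-miR-196b-5p and hsa-miR-615-3p (written below without the prefix), taken by name as 7 of the 2588 miRNAs in the deposited table. Parental cells (Ctrl, 3 libraries) were compared with cells carrying a CRISPR/Cas9 deletion of the *MIR21* locus (*MIR21*-KO, 3 libraries), and all cells were grown in the same medium and harvested 48 h after seeding. The knockout cells of the study were raised as single-cell clones, and the labels do not say how many clones the 3 *MIR21*-KO libraries represent or whether replicates were separate cultures. The p-values therefore measure only the spread between these libraries, which may be technical, and the deletion cannot be told apart from a trait of the chosen clone.

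HOX genes encode homeodomain transcription factors that set position along the body axis, and in mammals they lie in the clusters HOXA to HOXD in an order that follows their domains of expression. Hairpins of the miR-10 and miR-196 families lie within these clusters and are processed by Drosha and Dicer into a duplex, of which the 5p or the 3p strand is loaded into Argonaute. Base pairing of the seed, bases 2 to 8 of the loaded strand, guides repression of target mRNAs, and HOX mRNAs are known to be among the targets of miR-10 and miR-196. No mRNA was measured in these libraries.

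The members derive from 6 hairpin genes. *MIR10A* lies in the HOXB cluster (GRCh38, chromosome 17, 48579838 to 48579947, minus strand), where GENCODE 29 places it in an exon of a *HOXB4* transcript and an intron of *HOXB3*. *MIR10B* lies in the HOXD cluster, on chromosome 2 from 176150303 to 176150412 on the plus strand, in an intron of *HOXD3* and 810 bp from *HOXD4*. miR-196a-5p has 2 loci: *MIR196A1*, on chromosome 17 from 48632490 to 48632559 on the minus strand in an intron of *HOXB7*, and *MIR196A2*, on chromosome 12 from 53991738 to 53991847 on the plus strand in an intron of *HOXC6*, 1459 bp from *HOXC10*. *MIR196B* lies in the HOXA cluster, on chromosome 7 from 27169480 to 27169563 on the minus strand, in an exon of a *HOXA9* transcript. *MIR615* lies in the HOXC cluster, on chromosome 12 from 54033950 to 54034045 on the plus strand, in introns of *HOXC4* and *HOXC5*.

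The mature sequences of 6 members were found in RefSeq (GRCh38.p14), and miR-10b-5p is named only. They are shown 5′ to 3′ because the report turns on how the strands of a hairpin and the near-identical miR-196 paralogs differ, with the seed in capitals.
miR-10a-5p: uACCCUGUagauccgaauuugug
miR-10a-3p: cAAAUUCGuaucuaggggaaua
miR-10b-3p: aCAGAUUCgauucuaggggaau
miR-196a-5p: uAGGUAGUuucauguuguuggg
miR-196b-5p: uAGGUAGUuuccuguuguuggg
miR-615-3p: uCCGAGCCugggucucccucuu

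miR-196a-5p and miR-196b-5p share their seed and differ by 1 base (A12C, counted from 1 at the 5′ end, with the base of miR-196a-5p first). The 2 loci of miR-196a-5p give the same mature sequence. miR-10a-5p and miR-10b-5p are known as close paralogs. The treatment of reads matching more than 1 locus or paralog is not given in the sources used here, so levels within the miR-10-5p pair and within the miR-196 pair are uncertain to that extent. The sequences shown are 23 nt long for miR-10a-5p and 22 nt for the others, with a GC content from 36.4% (miR-10a-3p) to 63.6% (miR-615-3p).

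The libraries held 6180032 to 9768152 miRNA reads in Ctrl and 5577287 to 8671618 in *MIR21*-KO. The deposited values are TMM-scaled reads per 1000000, that is, reads divided by 1 factor per library that is set from the bulk of the miRNAs. miR-21-5p, the targeted miRNA, had 4232696 to 6782871 reads in the Ctrl libraries and 1127 to 2087 in the *MIR21*-KO libraries, as the labels have it. Markers of epithelial cells were uneven. miR-200b-3p was present at 530 to 1953. miR-200a-3p, miR-429 and miR-200c-3p were also present, with lowest values of 60.6, 44.2 and 34.7. miR-203a-3p had 2.26 to 8.92, whereas miR-141-3p stayed under 2.69 and miR-205-5p under 0.289. The 7 epithelial markers summed to 1383 to 2176 in Ctrl and 887 to 1276 in *MIR21*-KO, without overlap. Over 19 markers of blood, leukocytes, endothelium, muscle, liver, neurons and fibroblasts, the values summed to 1777 to 5305 in Ctrl and 1356 to 4070 in *MIR21*-KO. Of these, miR-126-3p gave most (664 to 3648), and the 4 leukocyte markers summed to at most 1.89. The neuron markers, mostly miR-9-5p, summed to 388 to 746 in Ctrl and 155 to 177 in *MIR21*-KO. Those of blood summed to 136 to 217 and 78.2 to 92.6. The sums of the remaining lists among these 19 markers overlapped between conditions. The part of all these markers in the results was not tested. In bulk RNA, fewer cells of a type and less RNA per cell cannot be told apart.

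The libraries did not group by condition alone. The first principal component of the tested miRNAs that are no members held 64.1% of the variance. On it *MIR21*-KO replicate 3 lay with Ctrl replicates 1 and 2, while Ctrl replicate 3 lay with *MIR21*-KO replicates 1 and 2. The labels name nothing that these libraries share. The paper states that its small RNA libraries were made with a NEXTflex kit or by Novogene. Sequencing was done in Dresden or at Novogene. Which route each library took is not given, and its part in this grouping was not tested. Levels, shares and ratios of the members are therefore described below over all libraries and also within these 2 sets, in each of which 1 condition has 1 library.

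The HOX cluster miRNAs were dominated by the 5p strands of the miR-10 hairpins. miR-10a-5p made up 81.1% to 83.1% of the reads of the 7 members in each library, and with miR-10b-5p 96.7% to 99.4%. By mean deposited value miR-10a-5p stood in place 9 of 2588 miRNAs in Ctrl and in place 4 in *MIR21*-KO, and miR-10b-5p in places 22 and 15. In Ctrl the others stood between place 168 (miR-615-3p) and place 436 (miR-10b-3p).

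Of all miRNA reads other than miR-21, the 7 members together took 5.47%, 5.50% and 1.67% in Ctrl replicates 1 to 3, and 3.37%, 3.42% and 11.4% in *MIR21*-KO replicates 1 to 3. The extremes were thus Ctrl replicate 3 and *MIR21*-KO replicate 3, and the conditions overlapped. Within each set of libraries the share was higher in *MIR21*-KO: 11.4% against 5.47% and 5.50%, and 3.37% and 3.42% against 1.67%. The Ctrl mean was 4.21% ± 2.21 (SD, n = 3), and the mean of *MIR21*-KO was 6.05% ± 4.6 (SD, n = 3). The 95% Wilson interval of the lowest library ran from 1.65% to 1.68% and that of the highest from 11.34% to 11.39%. Such intervals hold only the error of counting, since reads were not identified by molecule, and they were far narrower than the spread between libraries.

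**Figure D1:**
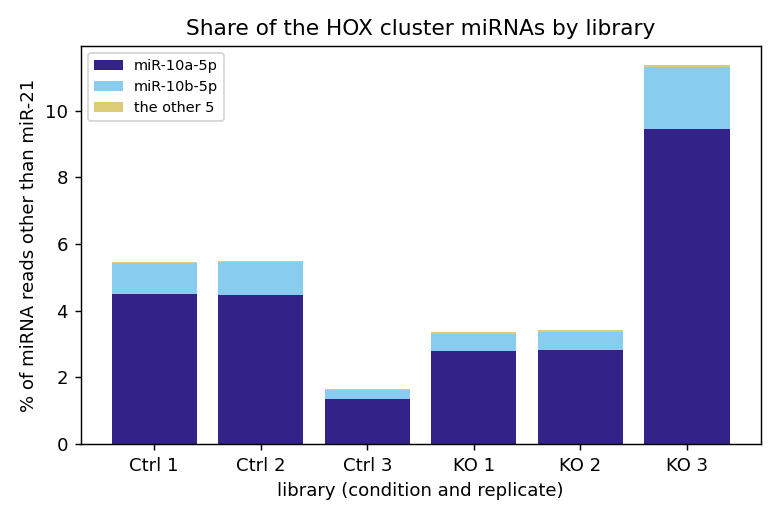
Reads of the HOX cluster miRNAs as a percentage of all miRNA reads other than miR-21, stacked for each of the 6 libraries (Ctrl 1 to 3, KO 1 to 3). miR-10a-5p fills most of each bar, and the total runs from 1.67% in Ctrl replicate 3 to 11.4% in *MIR21*-KO replicate 3.

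miR-10a-5p, from the hairpin in the HOXB cluster, had deposited values of 28478, 23536 and 5658 in Ctrl, against 17428, 14793 and 68468 in *MIR21*-KO replicates 1 to 3. *MIR21*-KO replicate 3 was the highest library and Ctrl replicate 3 the lowest, and the other *MIR21*-KO libraries lay below Ctrl replicates 1 and 2. The means were 19224 ± 12006 (SD, n = 3) and 33563 ± 30258 (SD, n = 3), and the log2 fold change was 0.74 with a standard error of 0.79 (adjusted p = 0.729, limma with Benjamini-Hochberg adjustment over 607 miRNAs). Leaving out Ctrl replicate 3 gave 0.01, and leaving out *MIR21*-KO replicate 3 gave 0.04.

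miR-10b-5p, its paralog in the HOXD cluster, had the same order of libraries. Its values were 5905, 5213 and 1086 in Ctrl, against 3250, 2733 and 13477 in *MIR21*-KO. limma gave a log2 fold change of 0.61 (SE 0.84, adjusted p = 0.789), which turned to -0.17 without Ctrl replicate 3 and to -0.11 without *MIR21*-KO replicate 3. The sign of this mean difference thus rested on these libraries.

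The 3p strands, usually the less abundant strands of these hairpins, were ordered the other way. miR-10a-3p had values of 21.9, 21.6 and 62.2 in Ctrl, against 113, 96.6 and 49.4 in *MIR21*-KO. Here Ctrl replicate 3 was the highest Ctrl library and *MIR21*-KO replicate 3 the lowest *MIR21*-KO library, and it lay below Ctrl replicate 3. limma gave a log2 fold change of 1.37 (SE 0.59, adjusted p = 0.438).

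miR-10b-3p was the scarcest member, with 8 to 35 reads in the Ctrl libraries and 50 to 148 in the *MIR21*-KO libraries. Its values were 2.94, 2.16 and 4.94 in Ctrl, against 10.7, 9.38 and 6.50 in *MIR21*-KO. It was the only member in which every *MIR21*-KO library lay above every Ctrl library, 1 of 7 members against 9.56% of all miRNAs tested (6.59% lay below in the same way). limma gave a log2 fold change of 1.21 (SE 0.41, adjusted p = 0.371), understated by the pseudocount at such low values.

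miR-196a-5p, encoded in HOXB and HOXC, was deposited in 2 rows, whose reads differed in every library and were summed. The sums were 42.5, 38.7 and 83.0 in Ctrl, against 113, 104 and 44.1 in *MIR21*-KO. As for the miR-10 3p strands, Ctrl replicate 3 was high and *MIR21*-KO replicate 3 low for its condition, and the conditions overlapped. limma gave a log2 fold change of 0.63 (SE 0.56, adjusted p = 0.719), which ran from 0.39 on leaving out *MIR21*-KO replicate 1 to 1.06 on leaving out *MIR21*-KO replicate 3.

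miR-196b-5p, from the HOXA cluster, had values of 29.9, 28.7 and 50.4 in Ctrl, against 49.8, 45.3 and 26.8 in *MIR21*-KO. The lowest and the highest library were *MIR21*-KO replicate 3 and Ctrl replicate 3, so the *MIR21*-KO libraries lay within or below the Ctrl range. It varied least of the members, by 1.88-fold over the 6 libraries. limma gave a log2 fold change of 0.16 (SE 0.48, adjusted p = 0.905), and the sign turned when the libraries were scaled by median centring (-0.14), by median-of-ratios factors (-0.083) or to the total without miR-21 (-0.090).

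miR-615-3p, from an intron of *HOXC5*, had values of 130, 86.5 and 32.7 in Ctrl, against 102, 72.9 and 338 in *MIR21*-KO. Like the miR-10 5p strands it was highest in *MIR21*-KO replicate 3 and lowest in Ctrl replicate 3, although between these *MIR21*-KO replicate 1 lay above Ctrl replicate 2. limma gave a log2 fold change of 0.91 (SE 0.75, adjusted p = 0.711). Leaving out Ctrl replicate 3 gave 0.36, and leaving out *MIR21*-KO replicate 3 gave 0.26.

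**Figure D2:**
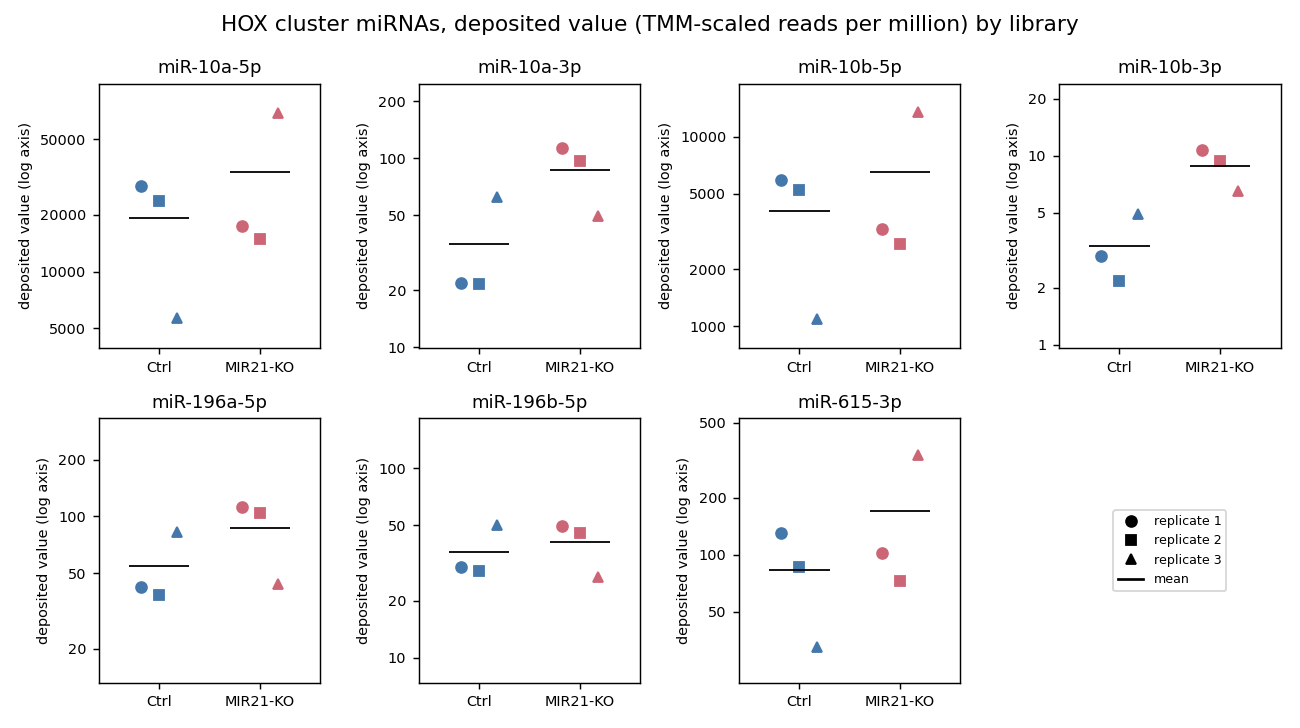
Deposited value (TMM-scaled reads per 1000000, log axis of the same span in each panel) of the 7 HOX cluster miRNAs in each library, with the mean of each condition as a line. miR-10a-5p, miR-10b-5p and miR-615-3p were lowest in Ctrl replicate 3 and highest in *MIR21*-KO replicate 3, whereas the other members were highest in Ctrl replicate 3 among Ctrl libraries and lowest in *MIR21*-KO replicate 3 among *MIR21*-KO libraries.

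Counted over the members, 0 of 7 passed an adjusted p of 0.05 in either direction. Over all 607 miRNAs tested, 0% were called higher and 0.824% lower, so 0 of 7 is not a result about the members. At an unadjusted p under 0.05, 1 member (miR-10b-3p) was higher, beside 6.75% of all miRNAs (4.45% lower). On the recovered reads edgeR called 0 members, beside 0% of all miRNAs higher and 1.15% lower, and DESeq2 called 0 members, beside 0.659% higher and 3.13% lower. The share of all miRNAs that limma called lower was 0.325% without the filter, 1.2% among those with a mean value of at least 10, 0.494% with a pseudocount of 10, 0.329% with a replicate block and 0.329% to 0.824% with each library left out, with 0 members called in each. All 7 members passed the filter on low values, and 7 of 7 had a positive log2 fold change, beside 61.8% of all miRNAs (38.2% negative). The median was 0.74 over the members and 0.24 over all miRNAs tested, a gap of 0.50. Other scalings moved the median of all miRNAs to between -0.03 and 1.34, and the gap to between 0.46 and 0.79. Single libraries moved the gap further: it was 0.09 on leaving out Ctrl replicate 3, 0.13 on leaving out *MIR21*-KO replicate 3, and 0.84 to 0.97 on leaving out any of the other libraries. When each library was divided by its total of all miRNAs, miR-21 included, 4 of 7 members were called higher, beside 32.3% of all miRNAs.

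Within each of the 2 sets of libraries, the miR-10 strands and miR-615-3p had higher means in *MIR21*-KO. miR-10a-5p was higher in *MIR21*-KO by 1.40 (log2) in the set of Ctrl replicates 1 and 2 and *MIR21*-KO replicate 3, and by 1.5 in the other set. For miR-10b-5p the differences were 1.28 and 1.46, and for miR-615-3p 1.66 and 1.37. The 3p strands gave 1.15 and 0.74 (miR-10a-3p) and 1.09 and 0.89 (miR-10b-3p). miR-196a-5p gave 0.12 and 0.38, against a median of all miRNAs tested of 0.13 in both sets, and miR-196b-5p gave -0.12 and -0.08. In all, 6 of 7 members had a higher mean in *MIR21*-KO within both sets, beside 42% of all miRNAs. The members are not separate observations, since the miR-10 strands come in pairs from the same hairpins. miR-10a-5p and miR-10b-5p also had nearly the same profile over the libraries.

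With a term for these sets added to the limma fit, 5 of 7 members were called higher, beside 11.7% of all miRNAs (6.43% were called lower). These were miR-10a-5p (log2 fold change 1.45, adjusted p = 1.06e-04), miR-10b-5p (1.37, adjusted p = 4.54e-04), miR-615-3p (1.52, adjusted p = 0.00221), miR-10a-3p (0.94, adjusted p = 0.0288) and miR-10b-3p (0.99, adjusted p = 0.0331). miR-196a-5p (0.25, adjusted p = 0.570 from limma) and miR-196b-5p (-0.10, adjusted p = 0.823 from limma) were not called. The sets were read from the same libraries, so these p-values are not independent of them. In each set 1 condition has 1 library, so that library adds no spread within its condition. The spread left in this fit rests largely on Ctrl replicates 1 and 2 and on *MIR21*-KO replicates 1 and 2. These were the most alike pairs of their conditions (chi-square per degree of freedom 151 and 130). The p-values thus do not measure the spread between replicates of a condition, and the calls are a description.

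Ratios of members within a library do not depend on the scaling factor, and they part the strand pairs from the paralog pairs. The 5p to 3p ratio of miR-10a was 1300, 1088 and 90.9 in Ctrl, against 154, 153 and 1386 in *MIR21*-KO. That of miR-10b was 2010, 2411 and 220 in Ctrl, against 305, 291 and 2073 in *MIR21*-KO. Both hairpins thus had high ratios in Ctrl replicates 1 and 2 and in *MIR21*-KO replicate 3, and low ratios in the other libraries. Within each of these 2 sets, the miR-10a ratio was higher in every *MIR21*-KO library than in every Ctrl library. For miR-10b, *MIR21*-KO replicate 3 lay between Ctrl replicates 1 and 2, and *MIR21*-KO replicates 1 and 2 lay above Ctrl replicate 3. Given as a share of both strands, miR-10a-3p ran from 0.0721% in *MIR21*-KO replicate 3 (95% Wilson interval 0.0652% to 0.0797%) to 1.09% in Ctrl replicate 3 (0.992% to 1.19%).

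The log2 ratio of miR-10a-5p over miR-10a-3p had a mean of 8.98 ± 2.15 (SD, n = 3) in Ctrl and of 8.32 ± 1.83 (SD, n = 3) in *MIR21*-KO, and that of miR-10b 10.00 ± 1.92 (SD, n = 3) and 9.15 ± 1.62 (SD, n = 3). The differences of -0.66 and -0.84 lay within the spread of the libraries (two-sided exact permutation test, p = 1.0 and p = 0.9, adjusted p = 1.0 for both over the 4 ratios compared). They were taken across the sets of libraries. Within each set the miR-10a ratio was higher in *MIR21*-KO, the opposite sign to -0.66. Over the 6 libraries the strand ratio varied 15.2-fold for miR-10a and 11.0-fold for miR-10b. Among the hairpins with both strands tested and read in every library, 21.3% had a wider range than miR-10a (3.93, log2) and 29.8% a wider one than miR-10b (3.45), and the median range was 2.75, so a wide range was common in these libraries.

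Between paralogs the ratio was steadier. The treatment of reads matching both paralogs is not given, so these ratios are uncertain to that extent. Ratios of paralogs outside the members were not examined. miR-10a-5p exceeded miR-10b-5p by 4.82, 4.51 and 5.21-fold in Ctrl and by 5.36, 5.41 and 5.08-fold in *MIR21*-KO, although the level of each varied more than 12-fold. Ctrl replicate 3 lay above *MIR21*-KO replicate 3, so the conditions overlapped (log2 difference 0.13, two-sided exact permutation test, p = 0.2, adjusted p = 0.4). miR-196a-5p exceeded miR-196b-5p by 1.42, 1.35 and 1.65-fold in Ctrl and by 2.26, 2.29 and 1.65-fold in *MIR21*-KO. Here Ctrl replicate 3 and *MIR21*-KO replicate 3 were nearly level and the other *MIR21*-KO libraries were above all Ctrl libraries (log2 difference 0.48, two-sided exact permutation test, p = 0.2, adjusted p = 0.4). With 3 libraries against 3, the exact permutation test cannot go below p = 0.1. Within each set of libraries, both paralog ratios were higher in every *MIR21*-KO library than in every Ctrl library, which was not tested.

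**Figure D3:**
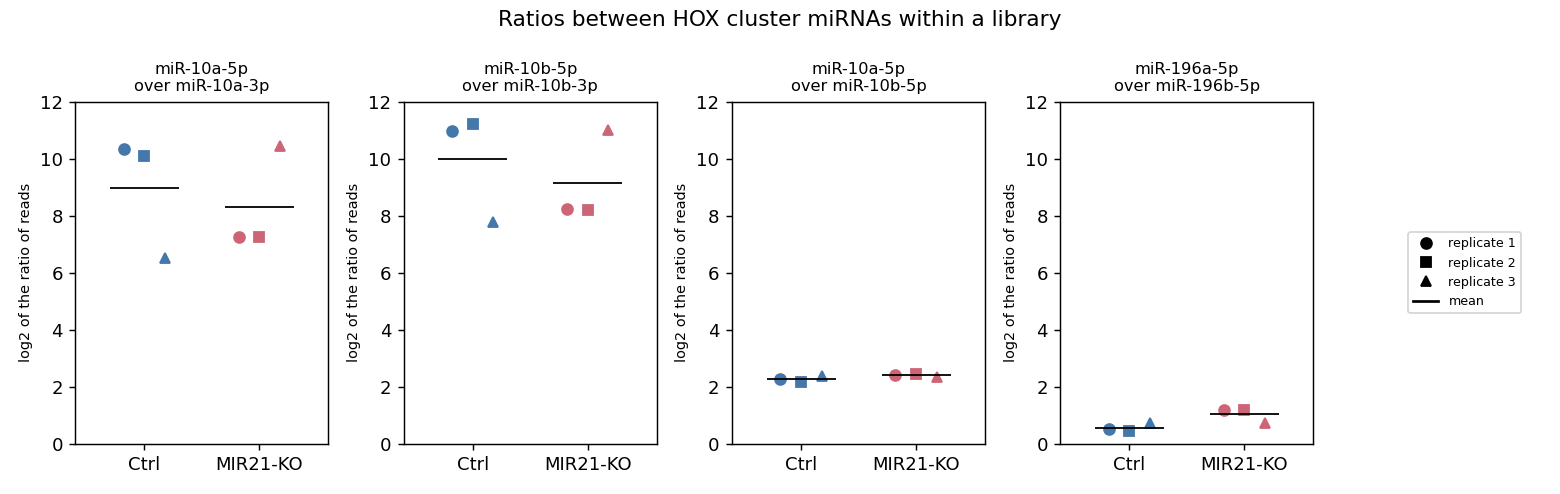
Log2 ratio of the reads of 2 members within each library, by condition, with the mean as a line. The strand ratios of both miR-10 hairpins run from 6.51 to 11.24 and cross the conditions, whereas the ratio of miR-10a-5p to miR-10b-5p stays between 2.17 and 2.44.

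The other strands and hairpins of the HOX clusters were scarcely read. A further 5 mature miRNAs of the clusters are in the table: miR-196a-3p, miR-196b-3p and miR-615-5p, the partner strands of members, and miR-3185 and miR-7704, from hairpins in HOXB and HOXD. None passed the filter on low values. Their highest counts in a library were 9, 7, 16, 1 and 6 reads. The deposited values of miR-615-5p, the most read of them, were 0.80, 0.27 and 0.28 in Ctrl, against 1.15, 0.72 and 0.91 in *MIR21*-KO, and the conditions overlapped. At such counts these strands were not tested for a difference. In each library miR-615 was read almost entirely from its 3p strand and miR-196b from its 5p strand, and miR-196a-5p far exceeded miR-196a-3p. The partner strand from *MIR196A1*, miR-196a-1-3p, has no entry among the deposited miRNAs, so the strands of that hairpin could not be compared.

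Among the RefSeq entries searched, no miRNA outside the members had the seed of any of these 6 sequences at bases 2 to 8. The member miR-10b-5p had no entry, so its seed was not compared with that of miR-10a-5p. The seed shared by miR-196a-5p and miR-196b-5p occurs, moved by 1 base to bases 3 to 9, in 8 abundant miRNAs (mean value 10 or more), namely miR-98-5p and the 5p strands of let-7a, b, c, d, f, g and i. Their log2 fold changes ran from 0.77 to 1.91, above those of both miR-196 members, and 0 of 8 passed an adjusted p of 0.05 (0.176 to 0.592 from limma). Beside this, 0% of all miRNAs tested were called higher in that fit, so the count is not a result about these 8.

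Likeness between profiles was measured as the root mean square difference of log2(value + 1), centred on each miRNA's mean, over the 6 libraries. miR-10a-5p and miR-10b-5p differed by 0.09 and miR-10a-5p and miR-615-3p by 0.23, whereas miR-10a-5p and its own partner strand differed by 1.65. miR-10a-3p differed from miR-10b-3p by 0.32 and from miR-196a-5p by 0.41. Among the 326 others whose mean value reached 10, those nearest to miR-10a-5p were miR-6842-3p (0.25), miR-129-5p (0.25) and miR-132-3p (0.30), against a median of 1.27. miR-6842-3p (0.16) and miR-129-5p (0.26) were also nearest to miR-10b-5p, followed by miR-379-5p (0.29). Nearest to miR-615-3p were miR-132-3p (0.22), miR-181a-2-3p (0.31) and miR-129-5p (0.34). Nearest to miR-10a-3p were miR-181c-3p (0.19), miR-98-5p (0.20) and miR-1287-5p (0.21). miR-585-3p (0.09), miR-485-3p (0.17) and miR-125b-5p (0.20) were nearest to miR-196a-5p, and miR-30a-5p (0.08), miR-484 (0.11) and miR-935 (0.16) to miR-196b-5p. With 6 libraries, of which the sets described above hold most of the variance, these distances are a description.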

How the data were processed

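The authors deposited 1 signal value per miRNA row and library, TMM-scaled reads per 1000000, beside their own log2 fold changes and p-values (p and FDR) of the comparison, which the authors made and which were not used here. The submitters' processing notes name cutadapt 1.14, Bowtie2 2.3.2, SAMtools 1.5, featureCounts 1.5.3, edgeR 3.18.1 and build hg38, with no settings. Every library's nonzero values could be divided by the value of 1 read to give whole reads (100.0% within 0.001), which were used as counts. TMM removes a change shared by most miRNAs.

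The 2813 rows were summed by name to 2588 miRNAs. The members and lists were chosen with earlier results of these data known. limma 3.58.1 (R 4.3.3; lmFit, eBayes with trend, condition as the only term, two-sided, Benjamini-Hochberg) was run on log2(value + 1), keeping the 607 miRNAs that reached 1 in 3 or more libraries. edgeR 4.0.16 (quasi-likelihood) and DESeq2 1.42.0 were run on the recovered counts of the deposited values. Replicates of a condition were no duplicate deposits (chi-square per degree of freedom 130 to 2560). The limma, edgeR and DESeq2 tests, with condition as the only term, were tried on simulated data. Named miRNAs are the members, the other HOX cluster miRNAs, holders of a member's seed and the 3 nearest profiles of each member with a mean value of at least 10. miR-196a-1-3p has no entry among the deposited miRNAs and was not analysed here. Alternatives were pseudocounts of 0.1 and 10, other filters and scalings, a replicate block, a term for 2 sets of libraries, the highest row of a name, and each library left out. Positions are from GENCODE 29 and sequences from RefSeq. Other steps used Python 3.11.15 with scipy 1.17.1.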

Additional observations from a re-analysis of the deposited data

How the results depend on the processing

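The count of members called higher was 0, 4 when libraries were divided by their total of all miRNAs and 5 with the term for the sets of libraries, and 0 under each of the other 17 alternatives, and the count called lower was 0 under all 19. The cause was not tested, except that the first scaling raises all other miRNAs in *MIR21*-KO by construction. The 5 calls with the term for the sets rest on p-values that do not measure the spread between replicates of a condition. The median log2 fold change of the members was 0.74, and 0.61 with a pseudocount of 10, 2.13 with the total of all miRNAs, 0.48 with the total without miR-21, 0.49 with median-of-ratios factors, 0.43 with median centring, 0.62 with DESeq2, 0.99 with the term for the sets, and 0.41 to 1.15 with each library left out, lowest without Ctrl replicate 3. Leaving out each library, the fold change of miR-10b-5p ran from -0.17 (without Ctrl replicate 3) to 1.05, and was -0.11 on leaving out *MIR21*-KO replicate 3. That of miR-196b-5p turned to -0.090 with the total without miR-21, -0.083 with median-of-ratios factors, -0.14 with median centring, -0.10 with DESeq2, -0.10 with the term for the sets and -0.010 without *MIR21*-KO replicate 1 (up to 0.43 with another library left out). The strand ratio difference of miR-10a (-0.66) ran from -1.90 to 0.023, reversed without Ctrl replicate 1, that of miR-10b from -1.95 to -0.22, and the paralog ratio differences from 0.08 to 0.18 (miR-10) and from 0.40 to 0.63 (miR-196). The Ctrl share of the members was 1.37% with all miRNA reads as the base, as miR-21 then enters it, and 3.57% to 5.49% with a library left out, and the *MIR21*-KO share 3.40% to 7.39%.

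The replicate numbers did not pair the libraries: the correlations of deviations of same-numbered libraries were -0.79, -0.60 and -0.88, and no library correlated best with its own number. With a replicate block, 0 members were called (median 0.74, smallest adjusted p = 0.950 from limma). Depth limits miR-10b-3p (8 reads in its lowest library) and the partner strands of miR-196 and miR-615.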
